A study of Drosophila melanogaster with 8 samples.

Results

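In embryos mutant for esc, 52 fly genes that the authors' table names only by an annotation number were at least 2-fold below their wild-type level in every pair of libraries. The members were chosen by these same RPKM values, as the rows named CG and a number whose mean in the 4 Oregon R libraries was at least 2 RPKM and whose lowest Oregon R value was at least 2 times the highest of the 4 esc values. They were 52 of 7026 CG-numbered rows and of 17321 rows in all. The groups were maternal and zygotic esc mutants (esc), in which both the mother's contribution and the embryo's own gene were mutant, and the wild-type laboratory strain Oregon R (OrgR). Each library was made from RNA of a pool of more than 200 whole embryos of stages 14 and 15, and its level is given in RPKM, read numbers scaled for gene length and for the library's total. Each genotype had 4 libraries, numbered 1-1, 1-2, 2-1 and 2-2, and the 2 libraries that share a first number are called a set. The esc allele and the strain background of the mutants are not given in the sources used here, so an effect of esc and a difference in background cannot be told apart.

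The gene esc encodes a WD40-repeat subunit of PRC2, the Polycomb complex that methylates lysine 27 of histone H3 and keeps developmental genes silent outside the cells that need them. A CG number is the provisional name of a predicted gene in the Drosophila genome annotation, kept until a gene is named after a mutant, a homologue or a function. The role of a member is given below only where the RefSeq annotation lists a synonym that names one.

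The library labels were checked on esc itself, which had 3.59, 3.56, 4.401 and 3.66 RPKM in esc libraries 1-1 to 2-2, against 10.7, 12.4, 11.9 and 11.7 RPKM in the OrgR libraries. The mutants thus kept some esc RNA, below every OrgR library. Relative depth, read from the spacing of low values, lay between 84.2% and 100% of the deepest library. Genes said to rise or fall passed an adjusted p of 0.05 in limma, fitted to all tested genes on log2(RPKM + 1) with 2 set means per genotype. Of 10547 tested genes 31.6% fell and 20.9% rose, and the small counts per marker list below stand beside these shares. Of 13 marker lists with 77 genes, the proliferation genes had summed levels of 312 to 321 RPKM in esc and 541 to 583 RPKM in OrgR (7 of 8 tested fell), the neuroblast genes 104 to 114 and 187 to 196 RPKM (4 of 6 fell), and the hemocyte genes 198 to 208 and 399 to 409 RPKM (2 of 5 fell, 1 rose). Late cuticle genes summed to 5041 to 10720 RPKM in esc and 15.5 to 18.4 RPKM in OrgR (8 of 9 rose, 1 fell), and muscle genes to 14090 to 15740 and 4304 to 5835 RPKM (5 of 6 rose). In the other lists the tested genes that fell and rose numbered 0 and 1 of 5 for neurons, 2 and 1 of 4 for glia, 1 and 1 of 3 for fat body, 0 and 3 of 4 for midgut, 2 and 0 of 4 for salivary gland, 1 and 2 of 5 for trachea, 2 and 2 of 5 for germ cells and 0 and 2 of 4 for oenocytes and Malpighian tubules. Their summed RPKM in esc and OrgR was 67.1 to 102 and 70.5 to 105 for neurons. For glia it was 173 to 184 and 212 to 243, and for salivary gland 135 to 165.5 and 208 to 230. For fat body it was 198 to 210 and 172 to 248, and for midgut 109 to 113.5 and 85.6 to 103. For trachea it was 2606 to 3249 and 1581 to 1783, and for germ cells 30.05 to 35.08 and 37.04 to 45.34. For oenocytes and Malpighian tubules it was 56.8 to 72.1 and 36.9 to 45.7. One listed gene, Sage, was matched to no row. No member is in any of these lists, and the part of embryo age or tissue makeup in the members' values was not tested. In pooled whole embryos, fewer cells of a type and less RNA per cell cannot be told apart.

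The members' own difference between esc and OrgR is what chose them, so it is described here with no test. All 52 passed the filter of the transcriptome-wide fit and all 52 were called lower there, beside 31.6% of 10547 tested genes, from which nothing is read because the rule used that contrast. Their differences on the log2(RPKM + 1) scale, esc minus OrgR, ran from -3.66 to -1.05, while the median of all tested genes was -0.18. Median-of-ratios scaling moved that median to 0.05 and the member nearest 0 to -0.79, and upper-quartile scaling moved them to -0.06 and -0.91. Of all genes called, 60.1% were lower in esc as deposited, 24.0% under median-of-ratios scaling and 42.9% under upper-quartile scaling. Among CG-numbered genes with an OrgR mean of at least 2 RPKM, 52 of 3592 met the fold limit, which is 1.45%. Among genes with any other name, 63 of 5057 met the same limits, or 1.25%. Mirrored limits asked for an esc mean of at least 2 RPKM and a lowest esc value at least 2 times the highest OrgR value. They were met by 635 CG-numbered genes and 452 others. Genes with such an esc mean were not counted, so these numbers are given without a share.

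The 52 genes covered a wide span of levels. In OrgR, 7 members averaged 100 RPKM or more, 23 between 10 and 100 RPKM and 22 under 10 RPKM. In esc, 18 averaged under 1 RPKM and 13 averaged 10 RPKM or more. Summed over all members, the level was 977 to 1056 RPKM in the esc libraries and 3609 to 3914 RPKM in the OrgR libraries, and CG5171 and CG7296 alone made up 48.7% to 53.1% of it in every library. The lowest OrgR value exceeded the highest esc value at least 10-fold in 8 members, 4- to 10-fold in 9 and 2- to 4-fold in 35.

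At the fold limit, membership was decided by small margins. CG11241 (3L, 22732013 to 22738420) had 20.8, 18.3, 18.5 and 18.8 RPKM in esc, against 46.3, 45.02, 43.8 and 42.3 RPKM in OrgR, a ratio of the extreme libraries of 2.04. CG18858 and CG9641 had ratios of 2.06 and 2.09. CG9641 (2L, 2974859 to 2976862) had 7.60, 7.68, 5.93 and 7.12 RPKM in esc, against 16.4, 16.02, 17.6 and 17.3 RPKM in OrgR. Just outside lay CG13616, CG31683 and CG10005, with ratios of 1.996, 1.98 and 1.98. CG10005 had 33.3, 30.2, 27.8 and 28.01 RPKM in esc, against 65.8, 67.8, 82.4 and 83.5 RPKM in OrgR. The first 2 of these outside genes stand next to members. Members near the limit and genes just outside it thus differed little from each other.

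**Figure D1:**
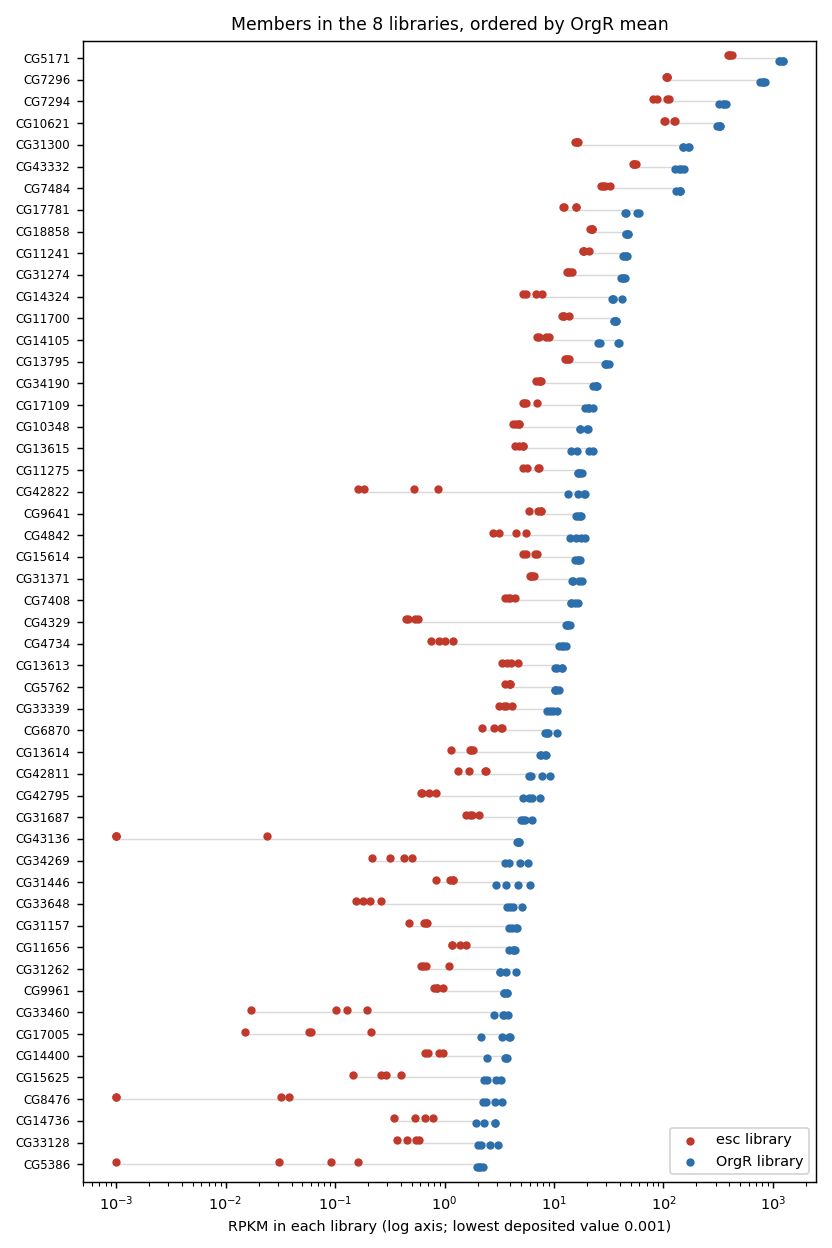
RPKM of the 52 members in each library on a log axis, with 4 esc libraries in red and 4 OrgR libraries in blue, ordered from top to bottom by the OrgR mean. In every row the points of the genotypes are apart, as the rule requires, and 3 members have esc points at 0.001 RPKM, the lowest value in the deposited table.

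At one extreme were genes near the table's floor in the mutants. CG43136, a single-exon gene on the X chromosome (5853761 to 5854464, plus strand, dm6), was listed at 0.001, 0.001, 0.001 and 0.024 RPKM in esc libraries 1-1 to 2-2, against 4.75, 4.72, 4.78 and 4.58 RPKM in the OrgR libraries. The OrgR libraries thus differed by little from each other, while 3 of the 4 esc libraries held the lowest value the table contains. CG8476, another single-exon gene (3R, 13219644 to 13220578), for which RefSeq lists the synonym Dnajb4, the name of a J-domain co-chaperone gene in mammals, had 0.001, 0.032, 0.038 and 0.001 RPKM in esc, against 2.25, 2.37, 3.37 and 2.86 RPKM in OrgR. CG5386 (3R, 22341236 to 22342251) had 0.001, 0.031, 0.161 and 0.091 RPKM in esc, against 2.27, 2.10, 2.04 and 1.99 RPKM in OrgR. These are the 3 members with an esc library at the floor of 0.001 RPKM, so no fold change is given for them. In each, OrgR was itself low, at under 5 RPKM.

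The other members with ratios above 10 included one gene that has since been named. CG4329 is now tous and carries the synonym Cfap57, after cilia- and flagella-associated protein 57 of other animals. It lies on 2R from 22609334 to 22613376, shares 2.27% of its exonic bases with Vps20 on the other strand, and had 0.533, 0.466, 0.576 and 0.441 RPKM in esc, against 12.8, 13.4, 13.2 and 14.0 RPKM in OrgR. Its mean was 0.504 ± 0.0064 RPKM in esc and 13.3 ± 0.39 RPKM in OrgR (SD, n = 2 sets each), 26.5-fold lower in esc, and the libraries of each genotype lay close together. CG42822 (3R, 17413901 to 17414607) had 0.184, 0.522, 0.161 and 0.865 RPKM in esc, against 18.9, 19.0, 16.7 and 13.3 RPKM in OrgR. Its means lay 39.2-fold apart, the widest separation among the 49 members with every esc value above the floor.

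The remaining 3 with such ratios were low in both genotypes. CG33460, which has the synonyms SP41 and SPH41 of the serine protease family, had 0.196, 0.128, 0.017 and 0.101 RPKM in esc, against 2.85, 3.40, 3.82 and 3.52 RPKM in OrgR (2R, 15694092 to 15695232). CG33648 (2L, 14524312 to 14525656) had 0.209, 0.154, 0.178 and 0.261 RPKM in esc, against 5.14, 3.69, 3.99 and 4.26 RPKM in OrgR. Both genes were under 0.3 RPKM in every esc library. CG17005 (2L, 9327744 to 9330332) had 0.212, 0.058, 0.060 and 0.015 RPKM in esc, against 2.15, 4.0, 3.86 and 3.36 RPKM in OrgR. In this gene the spread was wide in each genotype, and OrgR library 1-1 stood below the other OrgR libraries.

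Members with ratios between 4 and 10 joined scarce and abundant genes. CG31300 averaged 16.2 ± 0.42 RPKM in esc and 160.6 ± 14 RPKM in OrgR (SD, n = 2 sets each). Its libraries had 16.6, 16.4, 15.6 and 16.2 RPKM in esc, against 172, 168, 151 and 151 RPKM in OrgR, 9.92-fold lower in esc (3R, 25283620 to 25285224). CG7296 (2L, 10686124 to 10687066, single exon) had 106.9, 107.2, 106.9 and 106.6 RPKM in esc, against 838, 809, 816 and 760 RPKM in OrgR, 7.54-fold lower in esc. Its esc libraries differed by less than 1 RPKM across sets, a narrower spread than that of its OrgR libraries. CG4734 (2R, 13297202 to 13298467) had 0.753, 1.21, 0.882 and 1.00 RPKM in esc, against 12.05, 12.8, 11.8 and 11.2 RPKM in OrgR. CG42795, with the longest exonic sequence of all members (11033 bases; 3R, 10225690 to 10251277), had 0.718, 0.827, 0.604 and 0.624 RPKM in esc, against 5.16, 6.23, 5.85 and 7.40 RPKM in OrgR. CG15625 (2L, 4889995 to 4891277) had 0.404, 0.146, 0.261 and 0.293 RPKM in esc, against 3.28, 2.97, 2.42 and 2.31 RPKM in OrgR. In all 3 of these the esc libraries stayed at or under 1.21 RPKM. The other members in this range were CG34269, CG31157 and CG13614, given with their neighbours, and CG14324, whose means lay 5.72-fold apart.

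Among the genes most abundant in OrgR, the reduction was mostly 2- to 5-fold. CG5171 (2L, 7401335 to 7404727) was the highest, with 387, 397, 401 and 420 RPKM in esc, against 1237, 1227, 1167 and 1144 RPKM in OrgR. Its mean was 401 ± 13 RPKM in esc and 1194 ± 54 RPKM in OrgR (SD, n = 2 sets each), 2.97-fold lower in esc. CG10621 (2L, 18952206 to 18954431) had 102, 104, 127 and 124 RPKM in esc, against 331, 320, 326 and 311 RPKM in OrgR, 2.82-fold lower in esc. The esc sets of this gene differed, with set 2 above set 1, while the OrgR libraries lay close together. CG43332 (2L, 14161144 to 14163222) had 52.9, 53.9, 55.6 and 54.3 RPKM in esc, against 128, 138, 144 and 154 RPKM in OrgR, 2.60-fold lower in esc. CG7484 has the synonym Sep15, the name of a selenoprotein of the endoplasmic reticulum in mammals, and lies on 3L from 17654617 to 17655645. It had 28.9, 28.3, 26.8 and 32.4 RPKM in esc, against 143, 141, 142 and 130 RPKM in OrgR, 4.77-fold lower in esc.

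Some members lay close together in the genome, a property the rule did not use. On chromosome arm 3R, 7 members lay within 31166 bases (24360705 to 24391870): CG5762, CG33339, CG13613, CG42811, CG13614, CG17781 and CG13615. This run was found after the values were seen, as the longest chain of members with gaps of at most 50 kb. Its members lay on both strands, 4 on plus and 3 on minus, and had log2 differences from -1.82 (CG17781) to -1.20 (CG33339). CG17781 had 15.8, 15.7, 12.3 and 11.97 RPKM in esc, against 57.5, 59.8, 45.6 and 44.8 RPKM in OrgR. CG13615 had 5.25, 5.16, 4.82 and 4.45 RPKM in esc, against 20.8, 22.9, 14.4 and 16.3 RPKM in OrgR. CG13614 had 1.74, 1.70, 1.80 and 1.13 RPKM in esc, against 8.49, 7.68, 8.28 and 7.40 RPKM in OrgR. In CG17781 and CG13615, both libraries of set 2 were below both of set 1 in each genotype. CG42811 had 2.37, 2.35, 1.66 and 1.33 RPKM in esc, against 7.81, 9.25, 6.23 and 5.89 RPKM in OrgR, with the same order of sets. CG13613 had 4.07, 3.73, 3.36 and 4.68 RPKM in esc, against 11.9, 11.7, 10.7 and 10.3 RPKM in OrgR. CG5762 had 3.87, 3.60, 3.97 and 3.94 RPKM in esc, against 11.2, 10.3, 10.3 and 10.5 RPKM in OrgR. In CG13613 the esc sets overlapped, and in CG5762 esc set 2 was slightly above set 1. CG33339, which shares 0.491% of its exonic bases with CG33340, had 4.15, 3.50, 3.66 and 3.16 RPKM in esc, against 9.84, 10.7, 9.14 and 8.71 RPKM in OrgR. In OrgR, the level of the run's members ranged from 5.89 RPKM to 59.8 RPKM.

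The genes between these members, which the rule had not picked, could be tested. Of 8 other annotated genes inside the run, 7 were tested with limma on the set means, and 6 fell, none rose and 1 did not pass, beside 31.6% of all tested genes that fell. Their median log2 difference was -0.85, against -0.18 for all tested genes. The spans of CG33340 (plus strand, 24363138 to 24364289) and CG17784 (minus strand, 24364081 to 24364980) overlap. In unstranded libraries, reads from any exonic part they share cannot be told apart. CG17784 fell to 5.46, 6.62, 4.18 and 5.52 RPKM in esc, against 15.7, 17.0, 12.2 and 13.6 RPKM in OrgR (log2 difference -1.28 ± 0.17 SE, adjusted p = 0.0076). CG17780 had 24.9, 23.4, 17.6 and 19.0 RPKM in esc, against 46.5, 46.5, 38.0 and 36.6 RPKM in OrgR (-0.95 ± 0.18, adjusted p = 0.0163). The groups did not overlap in either gene. By leaving out OrgR set 1 or esc set 2, the call of CG17780 ended (log2 difference -0.80 and -0.76, adjusted p = 0.0633 and 0.0632). Falls were also called for CG5768 (-0.90 ± 0.23), CG17782 (-0.85 ± 0.22), CG33340 (-0.78 ± 0.15) and CG33341 (-0.50 ± 0.14), with adjusted p of 0.0313, 0.0325, 0.0159 and 0.0384. These 4 calls ended in 5, 5, 3 and 10 other settings, with adjusted p between 0.0511 and 0.131 there and a negative difference in each. CG42812 had a log2 difference of -0.39 ± 0.18 (adjusted p = 0.131).

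Beyond the run, 5 of 6 tested genes within 20 kb fell as well, beside 31.6% of all tested genes. Around the pairs of members given below, the genes within 20 kb were more mixed. CG13616, the next gene after CG13615 and the one that narrowly missed the rule, fell to 31.4, 31.5, 30.8 and 33.5 RPKM in esc, against 75.7, 76.1, 69.1 and 66.8 RPKM in OrgR (log2 difference -1.15 ± 0.10, limma adjusted p = 0.00307). On the other side CG18528, Golgin84, which encodes a Golgi coiled-coil protein, CG6454 and CG5746 fell by 0.43 to 0.60 on the log2 scale, with adjusted p between 0.0108 and 0.031. The calls of these 4 genes ended in 7, 6, 7 and 2 other settings. The gene that rose was Ms, which encodes the neuropeptide myosuppressin, with 2.02, 2.995, 3.79 and 4.80 RPKM in esc, against 0.045, 0.362, 0.369 and 0.079 RPKM in OrgR (log2 difference 1.83 ± 0.22, adjusted p = 0.00634). The 6 falls inside the run became 3 under median-of-ratios or upper-quartile scaling, where 8.15% and 17.3% of all tested genes were lower. They became 2 when either OrgR set was left out (set 1, 9.91% of all genes; set 2, 7.29%) and 1 when esc set 2 was left out (6.98%). CG17784 and CG13616 were called lower in 23 of 23 other settings. All of these p-values measure the spread between 2 sets per genotype, which may be technical, since no label describes them as separate embryo collections.

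**Figure D2:**
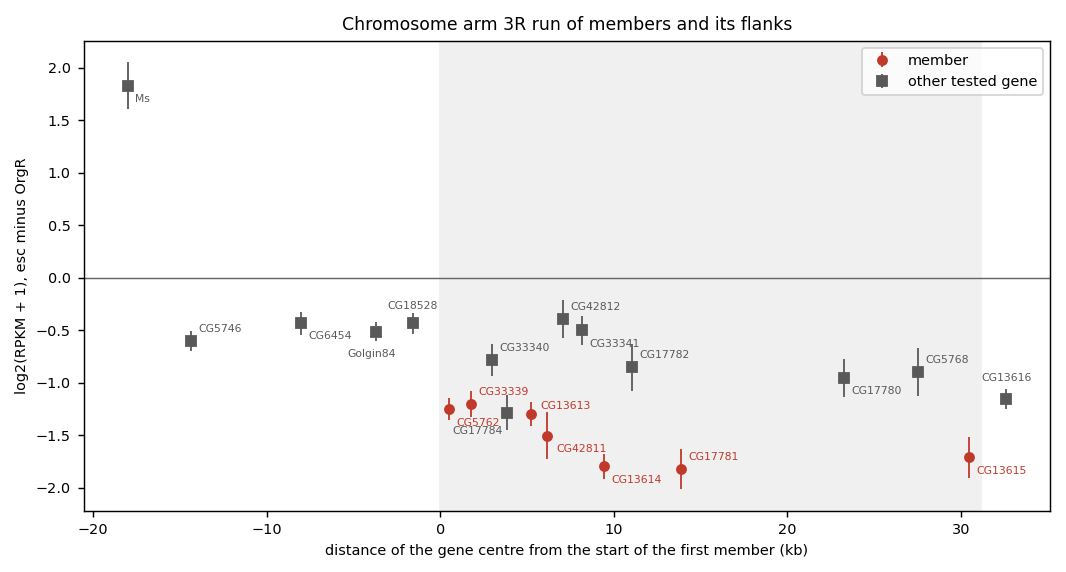
Log2 difference, esc minus OrgR, on log2(RPKM + 1), of the tested genes in and within 20 kb of the run of 7 members on 3R (shaded), against the distance of each gene's centre from the start of CG5762; bars are standard errors of the fit. All genes inside the shaded stretch lie below 0, members from -1.82 to -1.20 and the others from -1.28 to -0.39, and of the flanking genes only Ms lies above 0.

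A further 8 members lay in 4 pairs. CG7296 and CG7294 stand 1 after the other on the minus strand of 2L (10686124 to 10689271). CG7294 had 87.6, 79.4, 113 and 107 RPKM in esc, against 374, 359, 346 and 322 RPKM in OrgR, 3.62-fold lower in esc, and unlike its neighbour it differed between the esc sets. On the outer sides of this pair, CG17108 fell (log2 difference -0.43 ± 0.12, limma adjusted p = 0.0407), and CG7299 had a difference of 1.22 ± 0.52 (adjusted p = 0.109). Within 20 kb, CG7300 fell as well (-1.08, limma adjusted p = 0.0137), while Lip2 and CG6415 did not pass. The other tested genes there rose, namely CG31871 (0.98), CG17104 (3.52), CG17107 (0.64) and Lip1 (2.46), with limma adjusted p from 0.00129 to 0.0269. CG15614 and CG34190 on 2R (16945555 to 16947554) run towards each other and share 46.5% and 64.5% of their exonic bases, so in unstranded libraries reads from the shared part cannot be told apart. CG15614 had 5.15, 5.59, 6.98 and 6.68 RPKM in esc, against 16.5, 17.2, 16.7 and 15.6 RPKM in OrgR. CG34190 had 7.64, 7.25, 6.78 and 7.46 RPKM in esc, against 24.2, 22.9, 24.3 and 24.5 RPKM in OrgR. Set 2 was above set 1 in esc for CG15614 and not for CG34190. The genes on either side of them did not pass, Pkc53E with a log2 difference of 0.29 ± 0.155 and mute with -0.37 ± 0.12 (limma adjusted p = 0.177 and 0.0583). Farther off, within 20 kb, CG6665 fell (-0.44, limma adjusted p = 0.0206), and Ufm1 and PIG-V did not pass.

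The pair CG31687 and CG18858 on 2L (20450225 to 20459075) runs towards each other as well and shares 1.97% and 6.51% of exonic bases. CG31687 had 2.05, 1.78, 1.71 and 1.57 RPKM in esc, against 4.98, 5.16, 5.44 and 6.27 RPKM in OrgR. CG18858 had 22.1, 21.2, 22.0 and 22.1 RPKM in esc, against 45.6, 45.7, 47.1 and 47.02 RPKM in OrgR, the lowest fold of any member at 2.12. The genes on either side of this pair fell (limma on the set means). CG31683, which lay just below the fold limit, had 34.1, 34.5, 31.4 and 34.0 RPKM in esc, against 68.3, 69.6, 76.3 and 73.7 RPKM in OrgR (log2 difference -1.08 ± 0.09, adjusted p = 0.00312). Cdc23, a subunit of the anaphase-promoting complex, averaged 5.10 RPKM in esc and 8.59 RPKM in OrgR (-0.65 ± 0.10, adjusted p = 0.0108), and its call ended in 4 of 23 other settings, with adjusted p of at most 0.0579 there. CG31683 was called lower in all 23. The other tested genes within 20 kb of this pair, CG31688, CG2493 and CG43233, did not pass. The last pair, CG11656 and CG31157, spanned 39400 bases of 3R (13009895 to 13049294) with other genes between them. CG11656 had 1.58, 1.17, 1.39 and 1.18 RPKM in esc, against 4.28, 4.26, 4.36 and 3.86 RPKM in OrgR. CG31157 had 0.472, 0.648, 0.682 and 0.696 RPKM in esc, against 4.13, 4.54, 3.84 and 4.56 RPKM in OrgR, 6.83-fold lower in esc by means. Both were at similar levels in OrgR. Hsc70-2, a heat shock cognate gene 343 bp from CG31157, fell to 1.23, 1.32, 1.62 and 1.68 RPKM in esc, against 12.3, 11.8, 10.6 and 11.2 RPKM in OrgR (-2.35 ± 0.13, adjusted p = 0.0014). On the other side of CG31157, at 104 bp, CG7966 fell by 0.80 on the log2 scale (adjusted p = 0.0269; lost in 5 of 23 other settings). Beside CG11656, CG7518 had a log2 difference of -0.35 ± 0.13 (adjusted p = 0.0763). Between the members, CtBP and CG46280 fell (-0.54 and -0.38), as did CG8031, which holds CG11656. The calls of CtBP and CG46280 were near the threshold (limma adjusted p = 0.046 and 0.0472), and that of CtBP ended in 10 of 23 other settings. In the same stretch ry, CG11668, CG11670 and CG45122 did not pass (0.18, 0.02, -0.09 and 0.18). Within 20 kb outside, CG31342, pic and sim fell (-0.40, -0.43 and -0.58, limma adjusted p = 0.0347, 0.0258 and 0.0149). There yellow-f and yellow-f2 rose (0.405 and 0.998, limma adjusted p = 0.0318 and 0.0193). CG7488, CG17327 and CG44194 there did not pass.

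How the share of members' nearest tested neighbours that fell compared with that of genes in general depended on the scaling and the sets used. The nearest tested genes on each side of the members that were not members themselves numbered 93. Their gaps to the member ran from 1 to 73540 bp, and a gene overlapping a member was not taken as its neighbour. Of the 93, 38 fell (40.9%), 22 rose (23.7%) and 33 did not pass, beside 31.6% and 20.9% of all tested genes. Without the genes in or within 20 kb of the run on 3R, 30 of 84 fell (35.7%) and 22 rose (26.2%), with a median log2 difference of -0.22. The 38 falls became 18 of 93 under median-of-ratios scaling (19.4%, beside 8.15% of all tested genes), 21 under upper-quartile scaling (22.6%, beside 17.3%) and 19 with the set number as a block (20.4%, beside 8.52%). Leaving out OrgR set 1 gave 17 (18.3%, beside 9.91%) and leaving out OrgR set 2 gave 13 (14.0%, beside 7.29%). Without esc set 1 there were 23 (24.7%, beside 12.8%) and without esc set 2 there were 9 (9.68%, beside 6.98%). Away from the run, 14 of 84 fell under median-of-ratios scaling and 14 with the block (16.7% each), and 17 under upper-quartile scaling (20.2%). The share of neighbours that fell was thus above that of all tested genes in each of these settings, by a margin that differed between them. Away from the run the margin was small in some other settings. There 31% fell beside 30.7% with a pseudocount of 5, and 33.3% beside 30.7% with no variance trend. With no filter on low values it was wider, at 32.1% beside 22.5%. The share of the 93 neighbours that rose was above that of all tested genes in each of these settings as well. It was 26.9% beside 25.8% under median-of-ratios scaling, and 18.3% beside 15.4% without esc set 2. Away from the run, 26.2% rose, beside 20.9% of all tested genes. A wider count took tested non-members starting or ending within 5 kb of a member's ends, or lying inside it. Of these 114 genes, 50 fell (43.9%) and 23 rose (20.2%), beside 31.6% and 20.9% of all tested genes. By that definition the share that rose was slightly below that of all tested genes. No test of these differences was made.

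Several members had a close neighbour that moved the opposite way. CG5177, 500 bp from CG5171 on the same strand, rose to 643, 646, 585 and 577 RPKM in esc, against 295, 288, 183 and 185 RPKM in OrgR (log2 difference 1.40 ± 0.24, adjusted p = 0.0124). The call ended without esc set 1 (1.32, adjusted p = 0.0502). The order of the 2 genes differed between genotypes, with CG5177 above CG5171 in every esc library and below it in every OrgR library. CG43333, 286 bp from CG43332 and also on the minus strand, rose to 82.8, 83.4, 59.2 and 60.1 RPKM in esc, against 8.06, 8.42, 4.38 and 4.95 RPKM in OrgR, 11.1-fold higher in esc (3.30 ± 0.30, adjusted p = 0.00346). On the other side of CG43332, at 557 bp, CG46301 fell by 0.74 on the log2 scale (adjusted p = 0.0171), and its call ended in 4 of 23 other settings with adjusted p of 0.0556 to 0.0724.

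Beside CG4329 (tous), CG33143 rose to a mean of 8.35 RPKM in esc, against 2.96 RPKM in OrgR, at a gap of 952 bp (log2 difference 1.25 ± 0.14, adjusted p = 0.00554). CG17047, 528 bp from CG4734, averaged 89.2 RPKM in esc and 51.7 RPKM in OrgR (0.77 ± 0.14, adjusted p = 0.0135), and CG34107, 103 bp from CG42795, averaged 3.03 and 1.26 RPKM (0.85 ± 0.14, adjusted p = 0.011). Without OrgR set 2 both calls ended, at 0.68 and 0.72 (adjusted p = 0.0627 and 0.0507). Cks30A, a cyclin-dependent kinase subunit gene 431 bp from CG17005, fell with it, to 5.39 RPKM in esc, against 10.1 RPKM in OrgR (-0.79 ± 0.12, adjusted p = 0.0103), and without esc set 2 its call ended (-0.78, adjusted p = 0.0539). Smaller falls that were lost in 6 or more other settings were called for CG31104 beside CG31300, Ndfip beside CG7484, CtBP beside CG11656 and gammaTub23C beside CG9641, with log2 differences between -0.54 and -0.38 and adjusted p between 0.0315 and 0.046. Farther off, and named after their values were seen, the neighbours with the largest differences were CG34268 and CG14327. CG34268, 26937 bp from CG34269, rose to 21.0, 21.7, 96.4 and 98.8 RPKM in esc, against 0.322, 0.272, 0.197 and 0.286 RPKM in OrgR (5.21 ± 0.72, adjusted p = 0.00808). CG14327, 3348 bp from CG14324, rose to 22.9, 23.9, 64.2 and 70.1 RPKM in esc, against 0.059, 0.297, 0.107 and 0.052 RPKM in OrgR (5.18 ± 0.50, adjusted p = 0.00397). In both, esc set 2 was far above esc set 1, and each esc library was above every OrgR library.

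**Figure D3:**
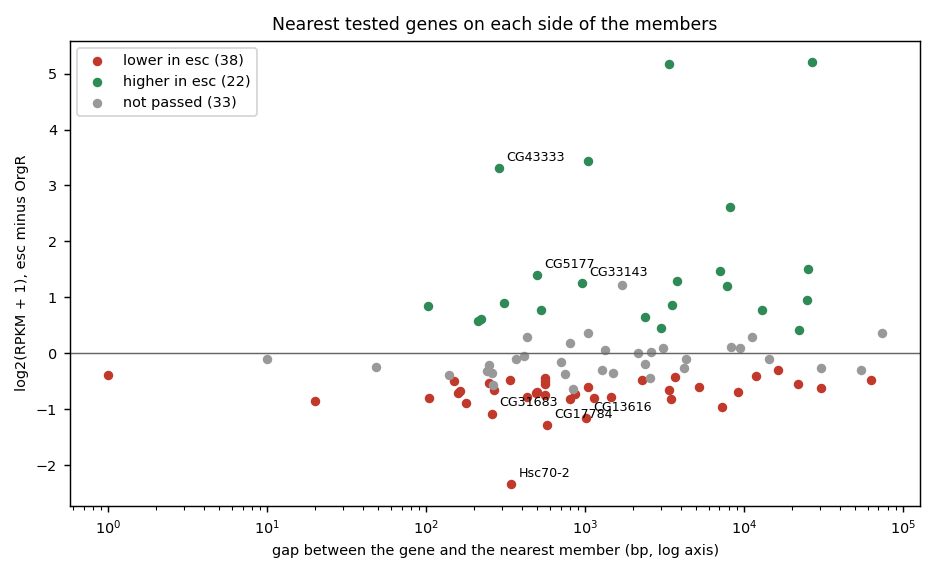
Log2 difference, esc minus OrgR, on log2(RPKM + 1), of the 93 nearest tested non-members, against their gap to the member in bp on a log axis, with 38 lower in esc in red, 22 higher in green and 33 that did not pass in grey. CG43333 at 3.30, 286 bp from CG43332, and Hsc70-2 at -2.35, 343 bp from CG31157, lie far from 0 in opposite directions.

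For 4 members the whole gene lay inside the span of another gene, in each case on the opposite strand. These are 7.69% of members, near the 8.19% of other CG-numbered genes with an OrgR mean of at least 2 RPKM that lay inside another gene. CG34269 (3L, 528337 to 528996), with 0.217, 0.430, 0.499 and 0.315 RPKM in esc, against 5.76, 4.91, 3.58 and 3.85 RPKM in OrgR, lies in klar, a gene for positioning nuclei and lipid droplets. The host klar rose, with 132, 131, 120 and 129 RPKM in esc, against 94.0, 107, 92.6 and 101 RPKM in OrgR (log2 difference 0.37 ± 0.08, adjusted p = 0.022; lost in 5 of 23 other settings). CG17109 lies in Cow, which rose to 12.5, 11.3, 7.54 and 7.56 RPKM in esc, against 3.45, 3.87, 3.39 and 4.49 RPKM in OrgR (1.13 ± 0.22, adjusted p = 0.0168; 0.067 and 0.0666 without OrgR set 1 or 2). Hosts of the other members fell. CG8031 holds CG11656 (-0.43 ± 0.08, adjusted p = 0.0158; lost in 6 other settings), and CG11170 holds CG11275 (-0.91 ± 0.14, adjusted p = 0.0106; 0.0555 without OrgR set 2).

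The 18 members not described so far with each library's value ranged from 0.342 to 14.7 RPKM in the esc libraries and from 1.95 to 45.0 RPKM in the OrgR libraries, with means 2.30- to 5.72-fold lower in esc. CG10348, which carries the synonym PRDM16 of a zinc finger regulator of mammals, had 4.46, 4.19, 4.74 and 4.74 RPKM in esc, against 20.03, 20.6, 17.2 and 17.4 RPKM in OrgR (2L, 18714453 to 18732524). CG31262, placed in solute carrier family 5 by its synonym dSLC5A14, had 0.603, 0.632, 1.11 and 0.678 RPKM in esc, against 3.23, 3.18, 4.49 and 3.62 RPKM in OrgR. CG11700 on the X chromosome (6282037 to 6283575) has polyubiquitin among its synonyms, and had 12.2, 11.9, 13.8 and 12.3 RPKM in esc, against 35.5, 36.6, 36.6 and 35.3 RPKM in OrgR. Ubiquitin repeats are nearly identical between genes, so the assignment of its reads is uncertain, and the ubiquitin gene Ubi-p5E, 2390 bp away, had 346 RPKM in esc and 393 RPKM in OrgR (log2 difference -0.18 ± 0.08, adjusted p = 0.111). The other 15 were CG14324, CG9961, CG33128, CG7408, CG31274, CG14105, CG17109, CG14400, CG4842, CG31446, CG14736, CG6870, CG31371, CG11275 and CG13795.

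All 52 are annotated as protein-coding. They were distributed unevenly over the chromosome arms, with 17 on 2L (32.7%), 21 on 3R (40.4%), 6 each on 2R and 3L (11.5% each) and 2 on the X (3.85%). The other CG-numbered genes with an OrgR mean of at least 2 RPKM had 17.1% on 2L, 25.1% on 3R, 19.6% on 2R, 19.9% on 3L and 17.7% on the X. Genes with another name that met the same limits (other-named genes) had 17.7% on 2L, 37.1% on 3R and 25.8% on 2R. On 3L and the X they had 14.5% and 4.84%, so the high 3R and low X shares were not particular to the members. None of the 17 members on 2L lay within 1 Mb of esc, and the nearest, CG7294, was 1137933 bases away. The share of other 2L genes within that distance was not counted. Whether the 2L share goes with the strain background of the mutants was not tested. Another member lay within 10 kb of 12 members (23.1%), against 79 of 3530 other CG-numbered genes (2.24%) and 4.84% of the other-named genes. These 12 lie in the run on 3R or in the pairs given above. Among them CG15614 and CG34190 share exonic bases, as do CG31687 and CG18858, and reads from the shared parts cannot be told apart. The members' genes were short, with a median span of 1370 bases against 2241 and a median exonic length of 1273 bases against 1776. The other-named genes had medians of 2745 and 2216 bases. The canonical transcript had a single exon in 9 members (17.3%), against 387 of 3530 other CG-numbered genes and 19.4% of the other-named genes. Exons overlapped those of another gene in 14 members (26.9%), against 44.2% of the other CG-numbered genes and 22.6% of the other-named genes. The overlap exceeded 10% of exonic bases in 6 members, namely CG31274 (64.9%), CG34190, CG15614, CG11241 (23.6%), CG13795 (16.0%) and CG14400 (14.0%), whose values are uncertain on that count. CG11241 shares them with CG11367 (log2 difference -0.01 ± 0.10, adjusted p = 0.92 by limma). These shares describe the members and were not tested.

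Within a genotype, the difference between sets was not used by the rule except through its extremes. In OrgR, 35 of 52 members were lower in set 2 than in set 1 (67.3%), against 55.4% of all tested genes. In esc, 19 of 52 were lower in set 2 (36.5%), against 47.4% of all genes. In the run on 3R, 5 of 7 members were lower in set 2 in esc, against 14 of the 45 other members, and in OrgR all 7 were, against 28 of 45. The 7 tested non-members inside the run were lower in set 2 in 7 of 7 cases in esc and in 6 of 7 cases in OrgR. Summed over the 7 members of the run, the level was 37.3, 35.8, 31.6 and 30.7 RPKM in esc, against 128, 132, 105 and 104 RPKM in OrgR. Outside the run, the widest differences between sets were a higher set 2 in esc for CG4842 (2.79, 3.16, 4.46 and 5.57 RPKM, log2 difference 0.59) and a lower set 2 in OrgR for CG14105 (38.3, 38.8, 26.1 and 25.0 RPKM, -0.57). Since both libraries of a set may come from one pool, these differences are given as a description.

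**Figure D4:**
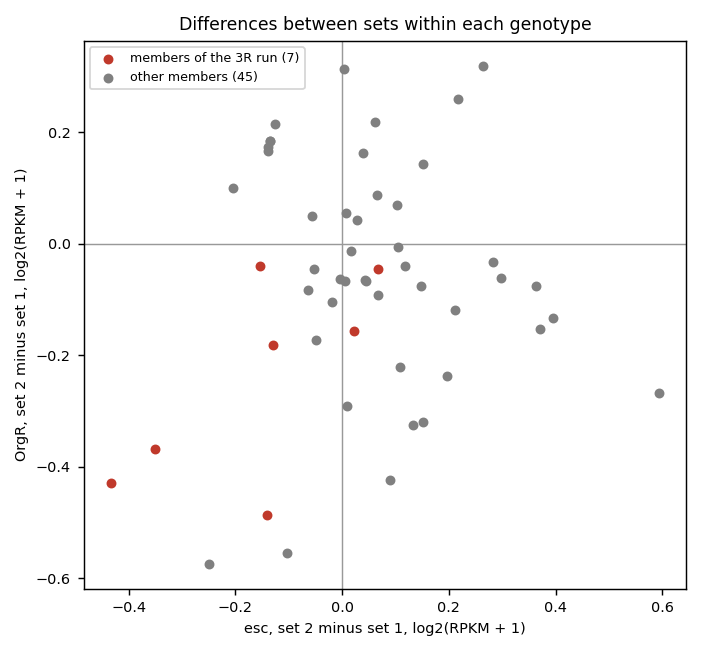
Difference of set 2 from set 1 on log2(RPKM + 1) in esc (horizontal) and in OrgR (vertical) for the 7 members of the run on 3R in red and the other 45 members in grey. The 7 red points lie below 0 on the vertical axis and 5 of them left of 0 on the horizontal axis, while 14 of the 45 grey points lie left of 0 on that axis.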

How the data were processed

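RNA-seq of 8 libraries, 4 per genotype, was used as the authors deposited it, a table of RPKM values on a linear scale with 1 column per library. Reads were placed on dm6 according to the submitters' processing notes, and libraries were unstranded, per the labels' protocols. Which aligner, counting program and gene models were used is not stated in the sources used here. A value of 0.001 RPKM, the table's minimum, was treated as a floor. RPKM values are shares of a library, and a fold change on log2(RPKM + 1) understates that of low genes.

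Libraries sharing genotype and first number were averaged on the log2 scale. The 10547 genes averaging 0.5 RPKM or more were fitted on the 4 set means with limma 3.58.1 in R 4.3.3 (lmFit, eBayes with trend, two-sided, Benjamini-Hochberg over all tested genes, threshold 0.05), and the procedure was checked on simulated data. In the text, rose and fell mean past that threshold. Members took no test. Positions came from the Ensembl release 115 annotation (dm6 coordinates, 1-based), to which 16178 of 17321 names were matched, 3624 of them through RefSeq synonyms. Neighbours were the nearest tested non-members on each side.

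Members, marker lists and the rule for named genes were chosen with earlier results of these data known. Every library's value was given for the 14 members with the widest ratio of lowest OrgR to highest esc value, the 6 highest others in OrgR, those nearest the limit, and those in runs or since renamed (34 in all). Called neighbours within 1 kb of these, and genes holding a member, were named. CG10348, CG31262, CG11700, CG4842, CG14105, CG34268, CG14327, CG17108, CG7299, Pkc53E, mute, CG7518 and Ubi-p5E were chosen after their values were seen. So were the flanks of the 3R run and the other genes between or within 20 kb of paired members. Protein and promoter features were not used here. Alternatives were pseudocounts, filters, scalings, units of replication, left-out libraries and sets, a replicate block and other limits for the rule.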

Additional observations from a re-analysis of the deposited data

Results flagged for a closer look

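In 8 of 104 groups of 4 libraries (52 members in each genotype), 1 library stood further from the others than Dixon's 95% critical value allows. Chance flags about 1 in 20 such groups where the 4 values are independent. Libraries of a set may share a pool, so the count is not read against that rate. In esc the flagged groups included CG43136, with 0.024 RPKM in library 2-2 and 0.001 RPKM, the floor, in the others. Its flag rests on those floor values. Another was CG13614, with 1.13 RPKM in library 2-2 and 1.70 to 1.80 RPKM in the others. CG18858 had 21.2 RPKM in esc library 1-2 and 22.0 to 22.1 RPKM in the others. In esc library 2-1, CG31262 had 1.11 RPKM (0.603 to 0.678 RPKM in the others) and CG31446 had 0.843 RPKM (1.13 to 1.19 RPKM in the others). In OrgR, library 2-2 was low for CG7484, at 129.6 RPKM (141 to 143 RPKM in the others), and for CG14400, at 2.46 RPKM (3.53 to 3.70 RPKM in the others). CG14324 had 41.7 RPKM in OrgR library 1-1 and 33.7 to 34.7 RPKM in the others. None of these libraries brought the genotypes closer than the rule's limit, since the rule is set on the extreme libraries.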

How the results depend on the processing

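The rule found 52 members, and 201 with a limit of 1.5 times, 23 with 3 times and 109 with the limit set on genotype means. Under median-of-ratios scaling 40 of the 52 remained and under upper-quartile scaling 45. Leaving out a library can only loosen the rule's fold limit, so it says nothing of stability. For genes with another name the 63 became 361, 13, 166, 27 and 40 in the same order of settings. The 3329 genes lower in esc became 5050 with 8 independent libraries, 860 under median-of-ratios and 1822 under upper-quartile scaling. With 1 set fewer, lower calls numbered 1045 and 769 (OrgR set 1 or 2 left out) and 1352 and 736 (esc set 1 or 2 left out). The lone set is then assumed to vary like the other genotype's sets. Higher genes (2208) became 1302 without OrgR set 2. With the set number as a replicate block, 899 genes were lower and 1568 higher, and 19 neighbours were lower. Same-numbered sets deviated in opposite directions (r = -0.34 over 10547 genes), and with numbers crossed, a choice made after seeing the data, 4198 were lower and 2519 higher. Lower neighbours (38) became 18, 21, 17, 13, 23 and 9 under both scalings and the 4 left-out sets in the order above, and higher ones (22) became 13 without OrgR set 2. Away from the 3R run the 30 became 14, 17, 14, 10, 17 and 7 in that order, and 14 with the block. The 6 lower genes inside the run became 3, 3, 2 and 2 under the scalings and the left-out OrgR sets, and 1 without esc set 2. The cause of these shifts was not tested.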
